A study of Homo sapiens with 6 samples.

Results

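The circular RNAs (circRNAs) made from the VAP genes VAPA and VAPB and from the VPS13 genes were described in BEAS-2B, a human line that was immortalised from the epithelium of the bronchi. Every listed circRNA whose only host gene was VAPA, VAPB or a gene with a name that starts with VPS13 was taken, which gave 19 of the 9857 circRNAs listed and 6 of their 3742 host genes. VAPB gave 4 of them, VPS13A 5, VPS13B 4, and VAPA, VPS13C and VPS13D 2 each. VAPA and VPS13C had been selected on their junction reads, which were lower with cadmium in these same libraries, so their differences are given as a description, with no p-value. Where a fit called one of them, this is stated only to show what the choice had used. The other 4 genes came in by name, and their adjusted p-values are those of a fit over all circRNAs or all host genes. The 3 cadmium libraries come from cells held for 20 weeks in medium with cadmium at 2.0 µM, and the 3 control libraries from the same line held for 20 weeks at 0.0 µM. In both arms exposure began 6 hours after seeding and cells were passaged every 3 days. Ribosomal RNA had been removed and linear RNA digested with RNase R before sequencing. Whether the 3 libraries of a group are separate cultures is not in the labels, and p-values here reflect the spread among these libraries alone, which may be technical.

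VAP proteins sit in the membrane of the endoplasmic reticulum (ER) and hold it close to other organelles by binding short peptide motifs, called FFAT motifs, of proteins on the other side. VPS13 proteins are long bridges with a hydrophobic groove along which lipids pass between membranes at such contact sites, and several of them reach the ER by binding VAP proteins. A circRNA is a closed loop made when the end of a downstream exon is spliced back to the start of an upstream one. Reads that span this back-splice junction count the loop, and no product of it was measured here.

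The back-splice junctions that carry the results are shown first, because each is the only stretch by which a loop is counted. Each line gives the transcript strand, with the last 20 bases of the downstream exon in lower case and the first 20 bases of the upstream exon in capitals, from GENCODE 29 transcripts on GRCh38.
VAPA hsa_circ_0006990: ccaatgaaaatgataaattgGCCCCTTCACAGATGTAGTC
VAPA hsa_circ_0046909: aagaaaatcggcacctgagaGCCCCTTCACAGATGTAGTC
VAPB hsa_circ_0001173: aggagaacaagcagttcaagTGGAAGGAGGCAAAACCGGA
VPS13C hsa_circ_0000607: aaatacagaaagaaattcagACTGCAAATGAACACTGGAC
VPS13A hsa_circ_0087243: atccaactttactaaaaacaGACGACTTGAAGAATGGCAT
VPS13A hsa_circ_0087247: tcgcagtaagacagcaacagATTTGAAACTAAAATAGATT
VPS13A hsa_circ_0087248: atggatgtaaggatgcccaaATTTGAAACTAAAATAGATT
The first pair shares the VAPA exon 2 start and differs in the exon joined to it. The third line is the main VAPB loop, which joins the end of exon 5 to the start of exon 4. The last pair shares the start of VPS13A exon 18.

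VAPA and VAPB are paralogs, and their exons 2, 3 and 4 have the same lengths of 153, 104 and 81 bases. Both genes make a loop of exactly these 3 exons, 338 bases long, so the main VAPA loop and a rare VAPB loop are counterparts. VPS13C and VPS13A are paralogs too, and their exons 10 to 13 also matched in length (58, 128, 107 and 172 bases), and 271 of those 465 bases (58.3%) were identical.

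Library totals ran from 133185 to 160248 junction reads with cadmium and from 137919 to 225769 in controls, with a median of 7 reads per circRNA and library. All 9857 listed circRNAs had reads in all 3 libraries of cadmium, of control or of both. A loop that is absent from any library of a group is thus listed through the other group alone. Control replicates 1 and 3 stood apart from the other 4 libraries. Over 6090 circRNAs, their junction share (doubled junction reads over the sum of doubled junction and non-junction reads) was 46.1% and 48.9%, against 30.0% to 31.8% with cadmium and 29.2% in control replicate 2. Where a log2 fold change from the fits here is printed for a member or a gene sum, its value without these 2 libraries is therefore printed too. Of the marker genes of other cell types, 0 of 6 immune and endothelial and 4 of 14 mesenchymal ones (ZEB1, ZEB2, BNC2 and FBN1) were circRNA hosts, and the mesenchymal sum was 418 to 558 CPM with cadmium and 604 to 721 CPM in controls. Among single tested host genes, 10.0% had every cadmium library below every control. No change of cell type is read from the mesenchymal sum. CPM is a circRNA's junction reads scaled to a common library size (counts per 1e6, after TMM scaling). None of the 16 epithelial markers was a host, so the cell type label could not be checked here. The part of these values in the results below was not tested, and in bulk libraries fewer cells with a loop and fewer loops per cell cannot be told apart.

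The 19 circRNAs held 5023 junction reads, 0.524% of all. Of these circRNAs, 14 passed the filter on low counts, and the remaining 5 (2 of VPS13A and 3 of VPS13B) had 0 to 14 reads in any library. Spliced lengths were 258 to 756 bases with a median of 397, against a median of 380 over all listed circRNAs. The loops were cut from genomic spans of 385 to 35755 bases. Of the 18 that followed annotated exons, 18 consisted of coding bases throughout and 0 held the start codon, and 4 began at exon 2, which 27.7% of 8702 mapped circRNAs did. The spliced length was divisible by 3 in 6 of the 19, against 36.9% of all listed circRNAs.

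**Figure D1:**
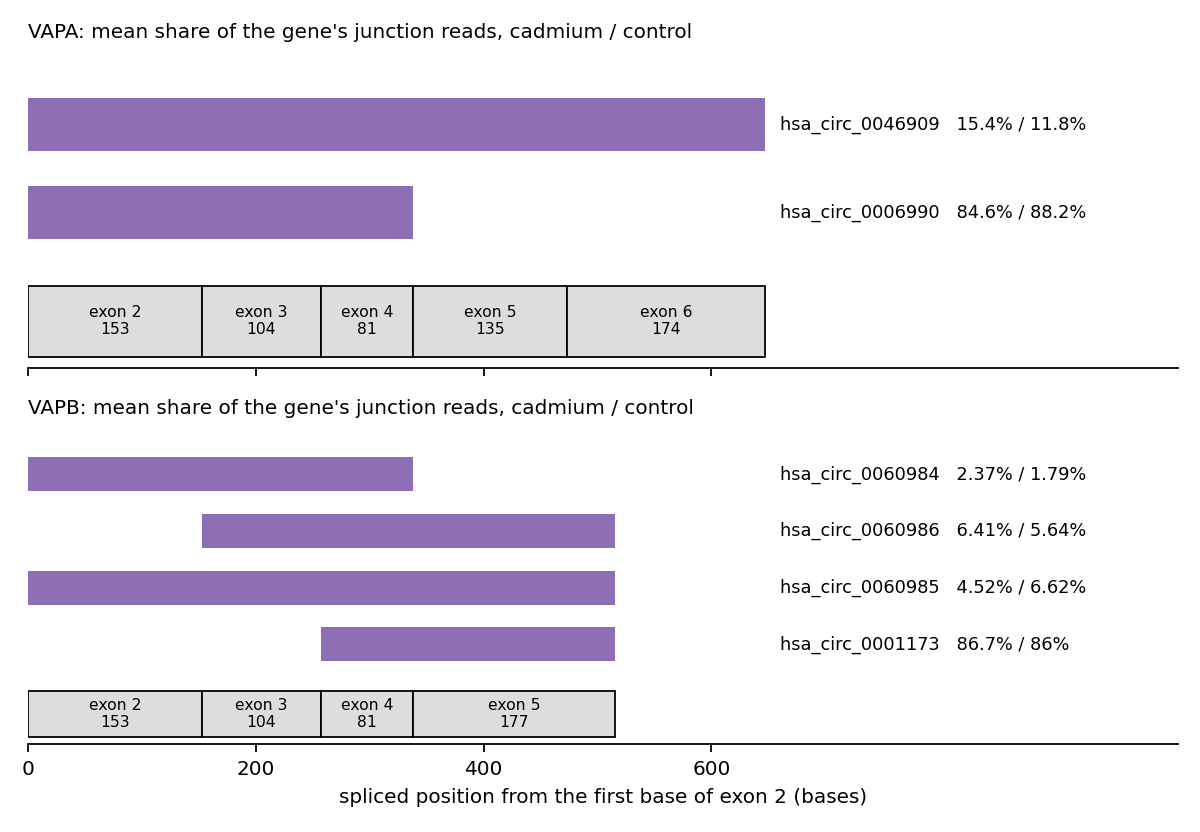
Exons of the VAPA and VAPB loops drawn to scale against the spliced position from the first base of exon 2 (bases). Purple bars are loops and grey boxes are exons with their lengths, and the percentages give each loop's mean share of its gene's junction reads in 3 cadmium and 3 control libraries, with hsa_circ_0006990 at 84.6% and 88.2% of VAPA and hsa_circ_0001173 at 86.7% and 86.0% of VAPB.

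VAPA, the more abundant source of loops in controls, gave fewer junction reads in every cadmium library. Its leading loop, hsa_circ_0006990, joins exons 2 to 4 of 7 (chr18:9931810-9937066, plus strand, 338 bases) and lies between introns of 17474 and 7857 bases, against medians of 6484 upstream and 5864 downstream over all mapped circRNAs. It was 35th by mean CPM of all 9857. The loop had 201, 193 and 232 junction reads in cadmium replicates 1 to 3, against 572, 404 and 398 in control replicates 1 to 3. These correspond to 1487, 1398 and 1480.2 CPM with cadmium and 2572, 2931 and 2394 CPM in controls. The highest cadmium library thus lay below the lowest control. The means were 1455 ± 49.5 CPM with cadmium and 2632 ± 273 CPM in controls (SD, n = 3 per group), a log2 fold change of -0.85 (SE 0.13), and -1.02 without control replicates 1 and 3. Of the 14 tested members, the choice had used the 1 below an adjusted p of 0.05 in edgeR's quasi-likelihood test, this loop. The test called 5 of 6182 circRNAs lower with cadmium (0.0809%) and 0 higher (0 higher also with DESeq2 and with limma, and 4.32% higher at an unadjusted p under 0.05), and nothing is read from the call. It was lost in 5 of the 6 fits that left out 1 library, with log2 fold changes of -0.94 to -0.81.

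The second VAPA loop, hsa_circ_0046909, starts at the same exon 2 but runs on to exon 6 (chr18:9931810-9950568, 647 bases). It had 38, 40 and 35 junction reads with cadmium and 94, 50 and 46 in controls, or 281, 289.7 and 223 CPM with cadmium and 423, 363 and 277 CPM in controls. The groups overlapped, because control replicate 3 lay below 2 of the cadmium libraries. The means were 265 ± 36.1 CPM with cadmium and 354 ± 73.3 CPM in controls (SD, n = 3 per group), a log2 fold change of -0.43 (SE 0.23), and -0.46 without control replicates 1 and 3. Its share of the VAPA junction reads was 15.9% (exact Clopper-Pearson 95% interval 11.5% to 21.2%), 17.2% (12.6% to 22.6%) and 13.1% (9.3% to 17.8%) with cadmium. In controls it was 14.1% (11.6% to 17.0%), 11.0% (8.29% to 14.3%) and 10.4% (7.69% to 13.6%). The single-library intervals overlapped and so did the groups, at 15.4% ± 2.1 with cadmium and 11.8% ± 1.99 in controls (SD, n = 3 per group). Such intervals cover counting error only, since no molecular identifiers separate PCR copies from molecules.

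Summed over both loops, VAPA gave 1818, 1756 and 1713 CPM with cadmium and 3071, 3326 and 2784 CPM in controls. The means were 1762 ± 53.0 CPM with cadmium and 3060.2 ± 271 CPM in controls (SD, n = 3 per group, log2 fold change -0.80, SE 0.12), with no overlap. Without control replicates 1 and 3 the log2 fold change was -0.94. For host genes, the same test called 6 of 3008 sums lower with cadmium (0.199%) and 1 higher (0.0332%). VAPA, in the contrast that chose it, was the 1 of the 6 genes among the lower ones, and 3 of the 6 fits that left out 1 library did not call it.

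**Figure D2:**
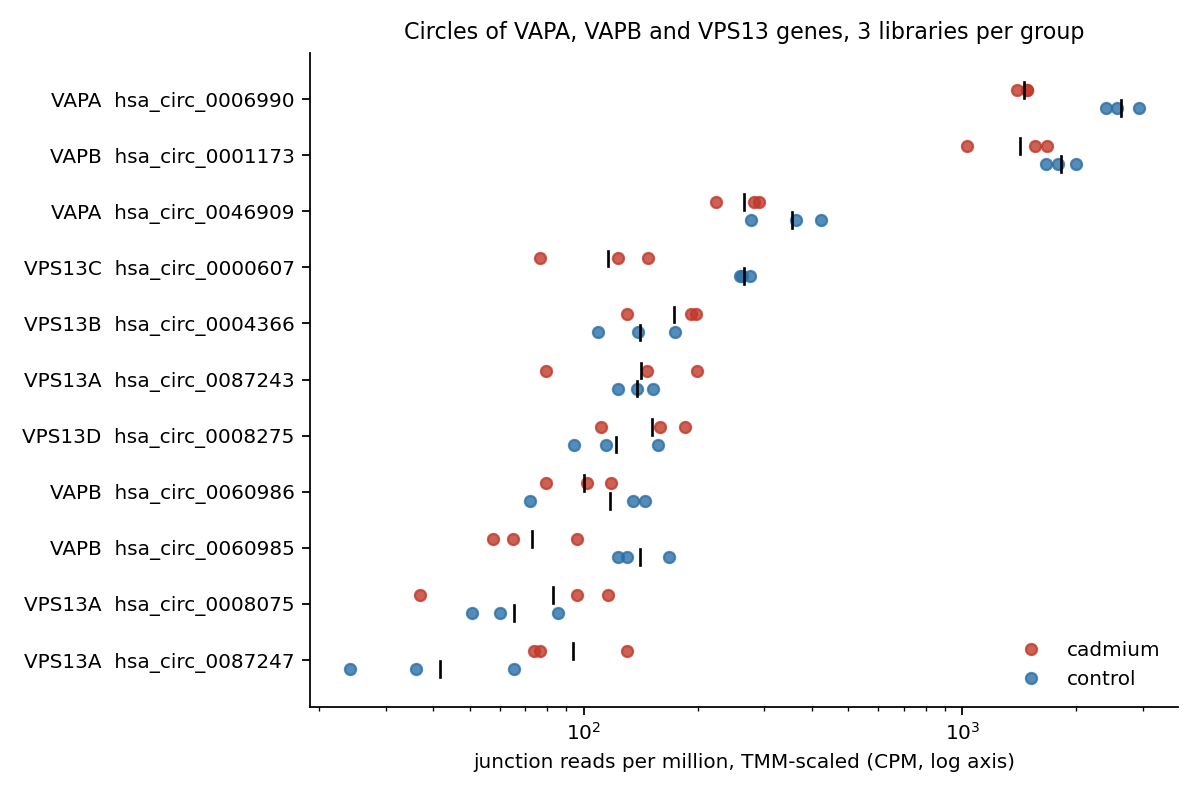
Junction reads in CPM (log axis) of the 11 loops with a mean of at least 10 reads per library. Each point is 1 library (red cadmium, drawn above blue control) and the bar is the mean of 3, and hsa_circ_0006990 of VAPA and hsa_circ_0000607 of VPS13C have every cadmium library below every control, as has hsa_circ_0060985 of VAPB, while hsa_circ_0087247 of VPS13A has every cadmium library above.

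VAPB, the second ER tether, was lower by sum in every cadmium library, a difference that did not pass the test. Its 4 loops all lie within exons 2 to 5 of 6. The main one, hsa_circ_0001173, holds only exons 4 and 5 (chr20:58438945-58441083, plus strand, 258 bases), the shortest of the 19. It had 210, 232 and 161 junction reads with cadmium and 399, 230 and 333 in controls, or 1553, 1680.2 and 1027 CPM with cadmium and 1794, 1669 and 2003 CPM in controls. Cadmium replicate 3 was low, and cadmium replicate 2 lay above control replicate 2. The means were 1420.2 ± 346 CPM with cadmium and 1822 ± 169 CPM in controls (SD, n = 3 per group). The log2 fold change was -0.36 (SE 0.18, adjusted p = 0.616 in edgeR), and it was -0.24 without control replicates 1 and 3.

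The other VAPB loops were rarer by an order of magnitude. The loop of exons 2 to 5, hsa_circ_0060985 (chr20:58418211-58441083, 515 bases), had 13, 9 and 9 junction reads with cadmium and 29, 17 and 28 in controls. Its level was 96.1, 65.2 and 57.4 CPM with cadmium and 130.4, 123 and 168 CPM in controls, with no overlap (log2 fold change -0.95, SE 0.35, adjusted p = 0.458 in edgeR). Of the 10 tested members outside VAPA and VPS13C, this loop was the 1 with every cadmium library below every control, as were 7.78% of all tested circRNAs, and 1 (hsa_circ_0087247) had every cadmium library above, as did 7.52%. Such shares are near the background and are not a result about the members. The loop of exons 3 to 5, hsa_circ_0060986 (chr20:58434602-58441083, 362 bases), had 118, 79.7 and 102 CPM with cadmium and 135, 145 and 72.2 CPM in controls. Those groups overlapped (log2 fold change -0.23, SE 0.36, adjusted p = 0.903 in edgeR). Without control replicates 1 and 3 the log2 fold changes were -0.77 for exons 2 to 5 and -0.54 for exons 3 to 5.

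The VAPB counterpart of the main VAPA loop was scarce in every library. This loop of exons 2 to 4, hsa_circ_0060984 (chr20:58418211-58439025), had 2, 11 and 4 junction reads with cadmium and 4, 8 and 6 in controls (log2 fold change 0.16, SE 0.72, adjusted p = 0.974 in edgeR). The sign turned without control replicates 1 and 3 (-0.54), so no direction is given for it. The VAPA loop of the same exons had 100.5, 17.5 and 58.0 times as many reads with cadmium and 143, 50.5 and 66.3 times as many in controls. Of the VAPB junction reads, hsa_circ_0060984 took 2.37% ± 1.69 with cadmium and 1.79% ± 1.04 in controls (SD, n = 3 per group), while hsa_circ_0001173 took 86.7% ± 1.79 with cadmium and 86.0% ± 2.18 in controls. The 2 paralogs thus differed in their main loop, exons 2 to 4 in VAPA and exons 4 to 5 in VAPB, in all 6 libraries. The share of hsa_circ_0060985 was 4.52% ± 1.0 with cadmium and 6.62% ± 0.672 in controls, with no overlap, but each library's interval overlapped those of the other group. Over the 7725 circRNAs of genes with several loops and with reads in all 6 libraries, the share within the gene was lower in every cadmium library than in every control in 8.01%, and higher in 8.54%. Among the 19 members it was lower in 3 and higher in 2. Reads of the counterparts could have been split between the paralogs, and the placing of such reads is not described in the sources used here.

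Summed over its loops, VAPB gave 1833, 1982 and 1219 CPM with cadmium and 2130.3, 2015 and 2376 CPM in controls. Every cadmium library was below every control, as in 10.0% of all tested host genes, although cadmium replicate 2 and control replicate 2 nearly met. The means were 1678 ± 405 CPM with cadmium and 2174 ± 185 CPM in controls (SD, n = 3 per group). The log2 fold change was -0.38 (SE 0.16, adjusted p = 0.350 in edgeR), and -0.29 without control replicates 1 and 3. The ratio of VAPA to VAPB junction reads was 0.992, 0.886 and 1.41 with cadmium and 1.44, 1.65 and 1.17 in controls. That ratio overlapped between the groups, so an unequal shift of the tethers was not separated from the spread between libraries.

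**Figure D3:**
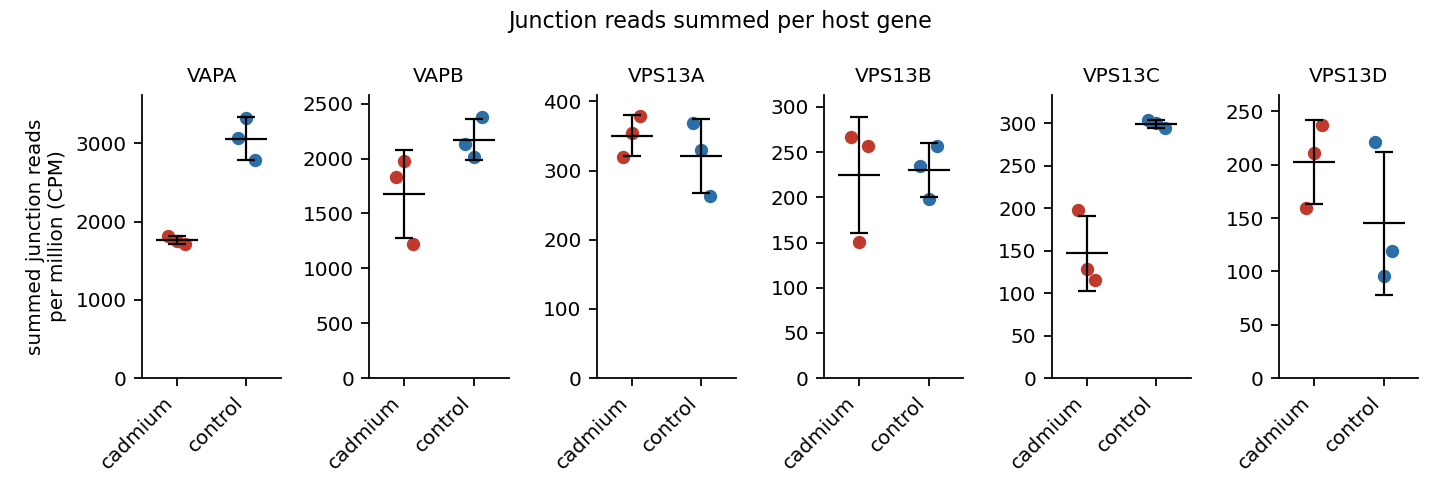
Junction reads summed over the loops of each host gene (CPM, each axis from 0). Points are libraries, horizontal lines the mean and error bars the SD of 3 cadmium (red, left) and 3 control (blue, right) libraries, and VAPA, VAPB and VPS13C show no overlap between the groups.

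Among the lipid bridges, VPS13C was lower in every cadmium library. VPS13C acts between the ER and late endosomes, lysosomes and lipid droplets, and loss of it is linked to early-onset parkinsonism. Its main loop, hsa_circ_0000607, joins exons 8 to 13 of 83 (chr15:62007308-62013992, minus strand, 606 bases). It had 20, 17 and 12 junction reads with cadmium and 61, 36 and 43 in controls, or 148, 123 and 76.6 CPM with cadmium and 274, 261 and 259 CPM in controls. The control libraries lay close together and the cadmium libraries were spread, with the highest of them still below every control. The means were 116 ± 36.2 CPM with cadmium and 265 ± 8.37 CPM in controls (SD, n = 3 per group), a log2 fold change of -1.20 (SE 0.28) that was -1.19 without control replicates 1 and 3. The second loop, hsa_circ_0004456 of exons 48 and 49 (chr15:61929501-61931259), had 6, 0 and 6 reads with cadmium and 5, 5 and 4 in controls. The 0 of cadmium replicate 2 allows up to 21.7 CPM (3 counts), so no difference was detectable at this depth. The log2 fold change was 0.04 (SE 0.94), and its sign turned without control replicates 1 and 3 (-0.38). Leaving out 1 library gave -0.48 to 0.57, so no direction is given for this loop. The VPS13C sum was 147 ± 44.3 CPM with cadmium and 299.8 ± 4.86 CPM in controls (SD, n = 3 per group, log2 fold change -1.03, SE 0.26), and -1.06 without control replicates 1 and 3.

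VPS13A, which acts between the ER and mitochondria and lipid droplets and is mutated in chorea-acanthocytosis, had no difference in its sum beyond the spread. The sum was 351 ± 29.6 CPM with cadmium and 321 ± 53.4 CPM in controls (SD, n = 3 per group). The log2 fold change was 0.12 (SE 0.20, adjusted p = 0.824 in edgeR), and 0.07 without control replicates 1 and 3. Its main loop, hsa_circ_0087243, joins exons 10 to 16 of 72 (chr9:77214329-77227485, plus strand, 756 bases), the longest of the 19, and includes the counterparts of VPS13C exons 10 to 13. It had 27, 11 and 23 junction reads with cadmium and 34, 17 and 23 in controls. At 142 ± 60.1 CPM with cadmium and 138 ± 14.8 CPM in controls (SD, n = 3 per group), the groups overlapped (log2 fold change 0.03, SE 0.34, adjusted p = 0.989 in edgeR, and 0.19 on the log2 scale without control replicates 1 and 3).

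A pair of VPS13A loops that share the start of exon 18 had values that lay in opposite directions, a difference that was not tested. The loop that ends at exon 19, hsa_circ_0087247 (chr9:77238002-77238386, 305 bases), had 10, 18 and 12 reads with cadmium and 8, 9 and 4 in controls. This is 74.0, 130.4 and 76.6 CPM with cadmium and 36.0, 65.3 and 24.1 CPM in controls, with every cadmium library above every control (log2 fold change 1.19, SE 0.47, adjusted p = 0.512 in edgeR, and 0.50 on the log2 scale without control replicates 1 and 3). The loop that ends at exon 22, hsa_circ_0087248 (chr9:77238002-77252352, 693 bases), had 0, 0 and 2 reads with cadmium and 10, 9 and 3 in controls and was too rare for the fit. As shares of VPS13A reads, the loop ending at exon 19 took 27.5% ± 9.54 with cadmium and 13.2% ± 5.92 in controls, and the loop ending at exon 22 took 1.13% ± 1.96 with cadmium and 13.2% ± 6.46 in controls (SD, n = 3 per group). Neither pair of shares overlapped between the groups, and they rest on at most 18 reads per library. The loop ending at exon 22 was listed through the controls alone, the group where it was higher. The listing thus favours its lower values with cadmium, and nothing is read from them. Its reads also count in the denominator of the share of the loop ending at exon 19. The loop of exons 20 to 22, novel_circ_0039130, shares the exon 22 end and was too rare for the fit. It had 0, 2 and 7 reads with cadmium and 9, 3 and 2 in controls, which overlapped. A last VPS13A loop near the gene's end, hsa_circ_0008075 of exons 68 to 71 (chr9:77381976-77407607), had 37.0, 116 and 95.7 CPM with cadmium and 85.4, 50.8 and 60.2 CPM in controls. Those values overlapped (log2 fold change 0.31, SE 0.45, adjusted p = 0.887 in edgeR), and the log2 fold change was 0.70 without control replicates 1 and 3.

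VPS13B, a Golgi protein mutated in Cohen syndrome, and VPS13D, a bridge between the ER and mitochondria or peroxisomes, did not pass the test either. The main VPS13B loop, hsa_circ_0004366 of exons 18 and 19 of 62 (chr8:99274198-99275254, 309 bases), lies between introns of 81140 and 108953 bases. It had 192, 130.4 and 198 CPM with cadmium and 139, 109 and 174 CPM in controls (log2 fold change 0.29, SE 0.30, adjusted p = 0.838 in edgeR). Its share of VPS13B reads was 80.6% ± 8.3 with cadmium and 62.4% ± 7.67 in controls (SD, n = 3 per group), with no overlap between groups but with overlapping single-library intervals, of which the lowest cadmium one ran from 56.7% to 87.5% and the highest control one from 54.5% to 83.9%. The sum of the gene was 225 ± 64.1 CPM with cadmium and 230.0 ± 30.0 CPM in controls (log2 fold change -0.04, SE 0.26, adjusted p = 0.967 in edgeR). Without control replicates 1 and 3 the log2 fold change was 0.66 for the loop, and for the sum its sign turned (0.16). The other 3 VPS13B loops had 0 to 5 reads per library with cadmium and 2 to 14 in controls. One of them, novel_circ_0037779, was classed by the authors' table as intronic. The others, novel_circ_0037768 and novel_circ_0037776, were listed through the controls alone. They count in the denominator of the share of hsa_circ_0004366, so the listing favours a higher share with cadmium. Nothing is read from the lack of overlap in that share.

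The main VPS13D loop, hsa_circ_0008275 of exons 25 to 27 of 70 (chr1:12299202-12308641, plus strand, 617 bases), had 111, 159 and 185 CPM with cadmium and 157, 94.3 and 114 CPM in controls. The groups overlapped (log2 fold change 0.29, SE 0.32, adjusted p = 0.852 in edgeR). The loop of exons 61 to 65, hsa_circ_0004222 (chr1:12400181-12416827), had 6, 6 and 8 reads with cadmium and 13, 0 and 0 in controls, where the zeros allow up to 21.8 CPM in replicate 2 and 18.0 CPM in replicate 3 (3 counts each). The VPS13D sum was 203 ± 39.5 CPM with cadmium and 145 ± 67.0 CPM in controls (SD, n = 3 per group). The log2 fold change was 0.43 (SE 0.33, adjusted p = 0.626 in edgeR). Without control replicates 1 and 3 it was 1.07, and 0.68 for the main loop.

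Over the 14 tested members, 6 log2 fold changes were below 0 and 8 above, with a median of 0.03 against 0.01 over all tested circRNAs. Of the 10 tested members outside VAPA and VPS13C, 1 was lower with cadmium at an unadjusted p under 0.05 (hsa_circ_0060985), against 3.88% of all tested circRNAs, and 1 was higher (hsa_circ_0087247), against 4.32%. The 6 below 0 were both VAPA loops, 3 of the VAPB loops and the main VPS13C loop. By gene sum, in control means, the order was VAPA (3060.2 CPM), VAPB (2174 CPM), VPS13A (321 CPM), VPS13C (299.8 CPM), VPS13B (230.0 CPM) and VPS13D (145 CPM). In controls the libraries of VPS13A and VPS13C overlapped, and so did those of VPS13B and VPS13D. With cadmium the order was VAPA (1762 CPM), VAPB (1678 CPM), VPS13A (351 CPM), VPS13B (225 CPM), VPS13D (203 CPM) and VPS13C (147 CPM), where the libraries of VAPA and VAPB overlapped, as did those of VPS13B with VPS13D and with VPS13C and those of VPS13D with VPS13C. A back-splice junction is 1 site per loop whatever its length, so no length term was applied to these levels.

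The locus reads that do not cross the junction gave a second readout. Junction shares of the main VAP loops were among the highest listed. Pooled over the libraries, hsa_circ_0006990 had 91.3% (98.1st percentile of 9857) and hsa_circ_0001173 had 91.0% (98.0th percentile), against a median of 35.6%. By library, hsa_circ_0006990 had 88.7%, 90.0% and 90.8% with cadmium and 92.3%, 91.1% and 92.5% in controls, with every cadmium library below every control by a few percentage points at most. That was so in 9.98% of the 6090 circRNAs listed with an entry for all 6 libraries (above in 1.22%), and in 1 of the 13 members among them (above in 0). At hsa_circ_0006990 control replicates 1 and 3 (92.3% and 92.5%) were the highest, as they were over all circRNAs. Control replicate 2 (91.1%) lay next to cadmium replicate 3 (90.8%). The part of this in the difference between the groups was not tested. For hsa_circ_0001173 the shares were 91.7%, 93.2% and 87.5% with cadmium and 91.3%, 89.7% and 91.2% in controls, which overlapped. The rare hsa_circ_0060984 had 8.05% (7.21st percentile), and its exon 4 also lies in the abundant hsa_circ_0001173. For hsa_circ_0000607 the share was 87.0%, 65.4% and 46.2% with cadmium and 94.6%, 72.0% and 94.5% in controls, with control replicate 2 below cadmium replicate 1.

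Non-junction reads at the main VAPA loop were also lower in every cadmium library. On the scale of 1e6 non-junction reads per library they were 72.1, 64.6 and 52.1 with cadmium and 150.0, 96.8 and 158 in controls, or 62.9 ± 10.1 with cadmium and 135 ± 33.2 in controls (SD, n = 3 per group). At hsa_circ_0001173 of VAPB they were 53.7, 51.1 and 51.0 with cadmium and 118, 64.9 and 156 in controls, also without overlap. Control replicate 2, whose junction share over all circRNAs was like that of the cadmium libraries, was nearer to them at both loops but above all 3. At hsa_circ_0000607 of VPS13C the values were 8.48, 27.1 and 31.0 with cadmium and 10.9, 34.3 and 12.2 in controls, and they overlapped. At hsa_circ_0060986 of VAPB they were 25.4, 49.6 and 44.3 with cadmium and 90.4, 55.1 and 92.4 in controls, without overlap. So 3 of 13 members were lower without overlap on this scale, against 9.70% of 6090 circRNAs, and 0 were higher, against 5.99%. Of these 3, hsa_circ_0001173 and hsa_circ_0060986 share VAPB exons 4 and 5, so their values are not independent of each other. The total of non-junction reads was 665386 to 902554 with cadmium and 411044 to 816373 in controls, and scaled to the junction totals instead, 2 of the 13 were lower (hsa_circ_0006990 and hsa_circ_0001173), against 1.48%, and 0 higher, against 10.5%. These readouts rest on the same libraries as the junction reads, and VAPA was chosen on its junction reads there. Non-junction reads can come from the loop itself, from another loop of the gene with the same exons, or from linear RNA left after RNase R. These sources cannot be told apart here.

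**Figure D4:**
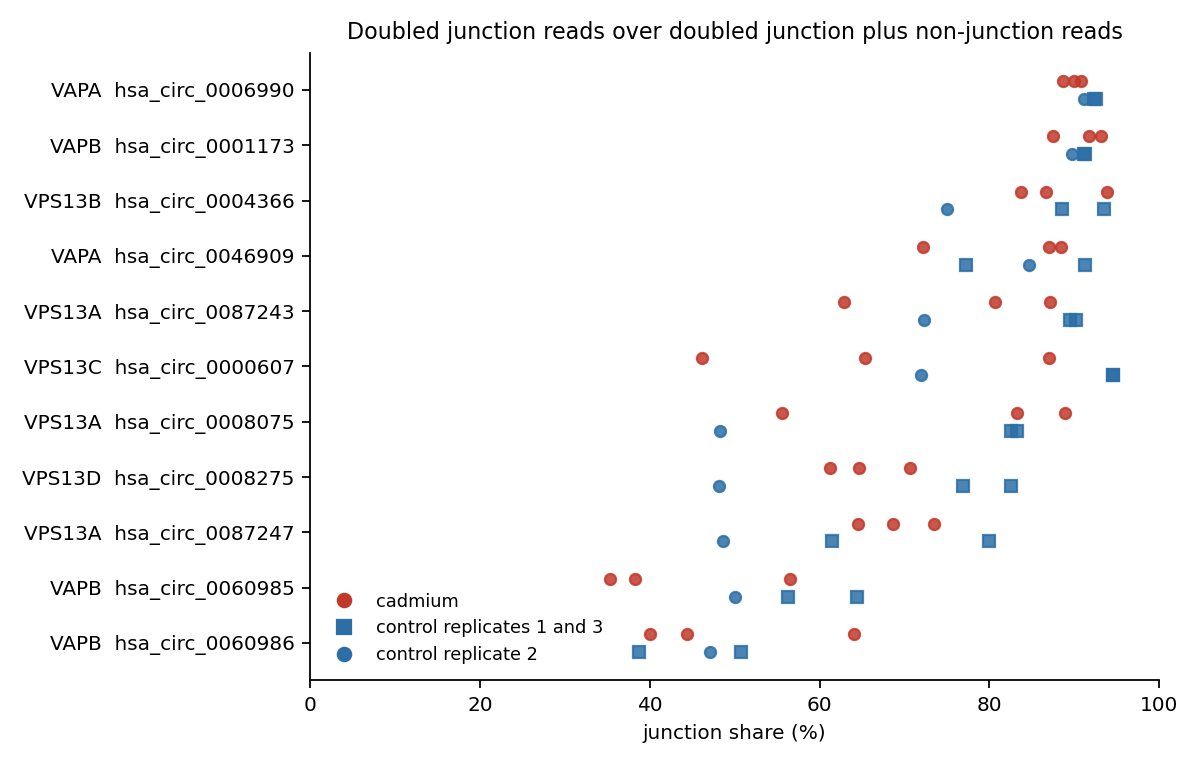
Junction share (%) of the 11 loops with a mean of at least 10 reads per library. Points are libraries, cadmium in red above controls in blue, with squares for control replicates 1 and 3, and the main VAPA and VAPB loops lie at 87.5% to 93.2% in every library.

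Other genes of lipid transfer and of membrane contacts were read from the same fit. Of 80 such gene symbols outside the members, some of them aliases of the same gene, 31 were listed as hosts and 24 were tested. None passed the adjusted threshold in edgeR's quasi-likelihood test in either direction, nor did any with limma or, among the 10 to which it gave an adjusted p, DESeq2 (at an unadjusted p under 0.05, 1 was lower, against 6.58% of all tested genes, and 0 were higher, against 5.88%). Of the 24, 15 log2 fold changes were below 0 and 9 above, with a median of -0.03 against 0.00107 over all tested genes. Without control replicates 1 and 3, 10 were below 0 and 14 above, 0 were called, and the smallest adjusted p was 0.551 in edgeR. The gene with the smallest p was KIAA1109, which encodes another bridge-like lipid transfer protein, at 16.5 ± 2.37 CPM with cadmium and 64.0 ± 23.2 CPM in controls (SD, n = 3 per group). The log2 fold change was -1.86 (SE 0.65, adjusted p = 0.248 in edgeR). It was named after its values were seen and had 2, 2 and 3 reads with cadmium and 9, 12 and 10 in controls. Its log2 fold change was -2.36 without control replicates 1 and 3, and that of ZFYVE27, the highest of the 24 in the fit with all libraries, was then 0.03. ZFYVE27 had 4, 5 and 7 reads with cadmium and 0, 5 and 0 in controls (SE 1.11, adjusted p = 0.541 in edgeR with all libraries).

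The 6 most abundant hosts of that list were a tether, a scramblase, a GTPase, sorting nexins and a phospholipid transfer protein. ESYT2, an ER to plasma membrane tether, had 1308 ± 106 CPM with cadmium and 1292 ± 135 CPM in controls (log2 fold change 0.01, adjusted p = 0.977 in edgeR). VMP1, an ER scramblase that shapes contacts and autophagosomes, had 1163 ± 45.1 CPM with cadmium and 1188 ± 50.04 CPM in controls (log2 fold change -0.03, adjusted p = 0.936 in edgeR). RAB7A, the late endosomal GTPase that recruits VPS13C, had 935 ± 60.5 CPM with cadmium and 761 ± 56.8 CPM in controls, with every cadmium library above every control, as in 9.28% of all tested host genes (log2 fold change 0.29, adjusted p = 0.422 in edgeR, and 0.40 on the log2 scale without control replicates 1 and 3). These 3 did not pass the test, and the loops of the first 2 lay at about the same level in both groups. SNX13, PITPNA and SNX25 had log2 fold changes of -0.03, 0.09 and -0.08 (adjusted p = 0.960 in edgeR, 0.845 and 0.906). Without control replicates 1 and 3 the log2 fold change was 0.13 for ESYT2, -0.12 for SNX13 and 0.15 for PITPNA. The signs for VMP1 (0.01) and SNX25 (0.34) turned without these libraries.

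**Figure D5:**
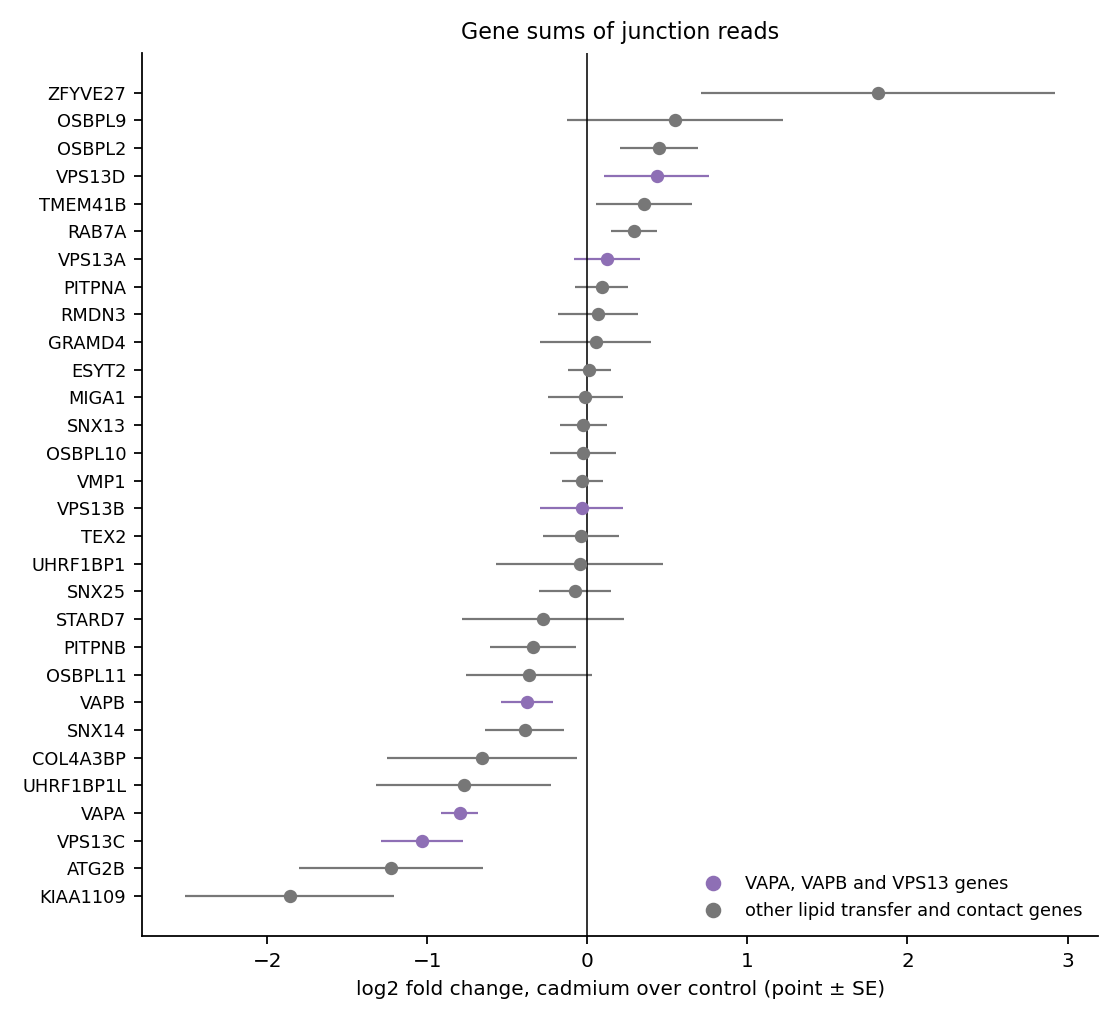
Log2 fold change (cadmium over control) of junction reads summed per gene, with bars of 1 SE from edgeR, for the 6 VAP and VPS13 genes (purple) and 24 other lipid transfer and contact genes (grey). The other genes run from -1.86 (KIAA1109) to 1.82 (ZFYVE27, with 0 reads in control replicates 1 and 3), and VAPA (-0.80) and VPS13C (-1.03) were chosen for being lower.

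The circRNAs most like the main VAPA loop across the 6 libraries were found by Pearson's r of log2 CPM over 4151 candidates with a mean of at least 50 CPM. The highest were hsa_circ_0058040 of SPAG16 (r = 0.996), novel_circ_0031141 of MYO10 (r = 0.991), hsa_circ_0004015 of CDK14 (r = 0.986), hsa_circ_0023942 of PICALM (r = 0.979) and hsa_circ_0057293 of NCKAP1 (r = 0.978). In all, 56 candidates reached 0.9. The points are 6 libraries in 2 groups, so each r contains the difference between the groups and is a description only. PICALM, a clathrin assembly protein, had 621, 587 and 669.9 CPM with cadmium and 926, 1096 and 1011 CPM in controls.

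In the authors' deposited table, 3 of the 19 circRNAs were marked as significant, as were 5.14% of its 9857 entries, and 2 of the 3 belong to the genes chosen on this contrast. The 506 marks in the authors' deposited table equal the entries with an unadjusted p under 0.05, of which 6 had an adjusted p under 0.05. The marked ones were hsa_circ_0006990 of VAPA (authors' deposited table, log2 fold change -0.83), hsa_circ_0000607 of VPS13C (-1.01) and hsa_circ_0087248 of VPS13A (-1.05). In the authors' deposited table only the VAPA loop of these had an adjusted p under 0.05. For hsa_circ_0087248, which was listed through the controls alone, that table gives no adjusted p.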

How the data were processed

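RNA-seq of circular RNA was compared between 3 cadmium and 3 control libraries of BEAS-2B, grouped by the treatment in the labels and numbered by the titles. The count table the authors deposited gives, for each circRNA, the whole number of reads over its back-splice junction in each library. The deposited TPM values are counts scaled to 1e6 per library with no length term, and served 1 alternative. The authors' deposited comparison gives group means of normalised reads (a signal without replicates), shrunken log2 fold changes and p-values, read only where named as theirs. The deposited annotation gives positions, hosts, junction reads and non-junction reads, while the circRNA caller and the way non-junction reads were counted are not given in the sources used here. Per the submitters' processing notes, the tools were DESeq 1.10.1, Bowtie and Bowtie2 2.2.8 and the build hg19, without their roles. Positions nevertheless follow GRCh38. After 1 was added to each deposited start, so that positions are counted from 1, 98.0% of exonic starts and 98.1% of ends fell on GENCODE 29 exon bounds.

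Counts were tested with edgeR 4.0.16 in R 4.3.3 (quasi-likelihood, robust, TMM, filterByExpr with minimum count 5 and total 15, Benjamini-Hochberg threshold 0.05), per circRNA (6182 tested) and per host gene sum (3008). Sums left out 240 circRNAs with several hosts. The SE was derived from the log2 fold change and the F statistic (absolute value divided by the root of F). Alternatives were other size factors, library totals, other filters, DESeq2 1.42.0, limma 3.58.1 on log2(TPM + 1), a block for the replicate number, leaving out each library, and leaving out control replicates 1 and 3.

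The members, the lists and the rule for named genes were chosen with earlier results of these data known. The rule gives every member, values per library from a mean of 50 CPM or 10 reads, the 6 most abundant other lipid transfer hosts, and the 5 circRNAs most like the main VAPA loop. Library totals of 133185 to 225769 reads limit precision for loops with few reads. No library was a copy of another, since replicates differed beyond counting noise. Some sequences are not reported here.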

Additional observations from a re-analysis of the deposited data

How the results depend on the processing

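The number of circRNAs called was 5 in the main fit and 3 without control replicates 1 and 3, and leaving out 1 library gave 0 (without control replicate 1) to 13 (without control replicate 2). For host genes it was 7, against 11 with DESeq2, 4 with limma and 3 without control replicates 1 and 3, and leaving out 1 library gave 3 (without cadmium replicate 2 or control replicate 1) to 13 (without cadmium replicate 3). Without control replicates 1 and 3 the log2 fold change of the VAPA sum was -0.94 and that of hsa_circ_0006990 was -1.02, and leaving out 1 library gave -0.87 to -0.73 for the sum. For the VPS13C sum, leaving out 1 library gave -1.31 to -0.88. Changes of sign occurred only in values near 0 or with few reads. The VPS13A sum ran from -0.0063 (without control replicate 3) to 0.23 and the VPS13B sum from -0.18 to 0.17 (0.04 without control replicate 3), with 0.16 without control replicates 1 and 3. The loop hsa_circ_0060984 gave -0.090 with limma and -0.54 without control replicates 1 and 3, and -0.81 to 0.55 when 1 library was left out (-0.23 without control replicate 1). The loop hsa_circ_0087243 gave -0.0086 with no filter and -0.042 with limma, and -0.32 to 0.28 when 1 library was left out, and hsa_circ_0008075 gave -0.0099 to 0.61. The log2 fold change of hsa_circ_0004456 was -1.21 with limma. That of hsa_circ_0004222, with 2 controls at 0, was 1.01 in the main fit. It reached 5.79 without control replicate 1 and 5.74 without control replicates 1 and 3, values that depend on the prior count. The difference in junction share of hsa_circ_0006990, cadmium minus control, was -2.09 percentage points, and -3.51 with junction reads counted once. The cause of these changes was not tested. Another scaling moved the median log2 fold change to at most 0.018.

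Deviations of same-numbered libraries correlated at 0.000205, 0.0216 and 0.0517 over circRNAs. Over host gene sums they correlated at 0.009, 0.00389 and 0.0839. No pairing was seen, but with few reads per circRNA a weak one could be missed. With the replicate block, the VAPA sum had a log2 fold change of -0.79 and the VPS13C sum -1.04, and 4 circRNAs and 6 host genes were called. The sign of hsa_circ_0060984 turned (-0.024).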
